A study of Mus musculus with 90 samples.

Results

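Among 90 mouse melanoma tumours profiled on expression arrays, 22 came from mice given the control antibody IgG, and these were split into 11 muscle-rich and 11 muscle-poor tumours. The split was selected on the data themselves. For each tumour the log2 values of Ckm, Acta1, Tnnt3 and Mylpf were averaged into a muscle score, and a tumour was muscle-rich where its score lay above the median of the IgG tumours of its own study. Study 2 gave 7 muscle-rich and 7 muscle-poor tumours, and study 3 gave 4 and 4. The question was which genes other than those of muscle were higher or lower in tumours that carried more skeletal muscle RNA, so the 4 score genes were left out of every test.

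The IgG tumours were subcutaneous melanomas, of genotype Hgftg;Cdk4R24C/R24C and of strain B6.cBrd, and the mice received a mouse IgG1 D265A antibody that served as control, at 10 mg/kg by the sample labels. The description of the series adds injection into the peritoneal cavity 2 times a week, also names 20 mg/kg, and has IgG tumours taken at several times; the labels used here do not give the time of each tumour. The other 68 tumours shared the genotype and strain and came from mice given anti-PD-L1, grouped as responder, non-responder, relapse, growth delay or stabilization, or PBS. Each tumour carried its own animal number. The labels do not say which part of a tumour was taken for RNA, and the growth protocol calls the model an allograft without naming the host.

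Skeletal muscle fibres contract through sarcomeres, in which myosin motors pull on actin filaments while the troponin complex, set by calcium, opens and closes the contact. Fast fibres use their own myosins, troponins and calcium pump and burn mostly glycogen, and slow fibres use another set of isoforms and respire more. In the mouse a thin sheet of skeletal muscle, the panniculus carnosus, lies in the skin close to where subcutaneous tumours are grown. All 4 score genes are muscle genes: Ckm encodes the creatine kinase of muscle, Acta1 the actin of its thin filament, Tnnt3 the troponin T of fast fibres and Mylpf the regulatory light chain of fast myosin.

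Promoters of the score genes are shown because the split rests on these genes. The 250 bases before the start of transcription were read from RefSeq (GRCm38.p6) for 3 of the 4 genes. Ckm lies at chr7:19410844-19411093 on the plus strand, Acta1 at chr8:123894776-123895025 on the minus strand and Mylpf at chr7:127211358-127211607 on the plus strand. Capitals mark E boxes, CANNTG, the letters bound by the MyoD family of muscle regulators, and in Acta1 also the one CArG box, the letters bound by serum response factor; both motifs read alike on either strand and no matches overlapped.
Ckm: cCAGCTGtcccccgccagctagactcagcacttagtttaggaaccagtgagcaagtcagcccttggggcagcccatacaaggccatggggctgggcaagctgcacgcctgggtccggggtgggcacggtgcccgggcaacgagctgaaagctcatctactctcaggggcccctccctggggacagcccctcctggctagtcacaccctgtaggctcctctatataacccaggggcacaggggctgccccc
Acta1: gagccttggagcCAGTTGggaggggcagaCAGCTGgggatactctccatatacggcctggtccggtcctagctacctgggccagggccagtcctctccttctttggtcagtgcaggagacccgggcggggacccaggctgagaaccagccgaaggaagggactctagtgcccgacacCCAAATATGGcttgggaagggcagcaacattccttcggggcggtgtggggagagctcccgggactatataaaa
Mylpf: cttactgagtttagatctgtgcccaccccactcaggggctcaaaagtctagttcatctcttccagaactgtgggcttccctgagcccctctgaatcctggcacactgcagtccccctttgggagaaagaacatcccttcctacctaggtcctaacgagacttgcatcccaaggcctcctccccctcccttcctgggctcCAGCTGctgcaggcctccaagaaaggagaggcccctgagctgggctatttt
Acta1 held 2 E boxes, and Ckm and Mylpf held 1 each. An E box was found in 74.9% of 203 windows of genes in the muscle lists, against 66.2% of all 32851 windows. A CArG box was found in 7.39% of the windows of muscle genes and in 1.47% of all windows. These are matches of letters in a window of one length and were not tested.

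The muscle score fell into a low mass and a few high tumours. In study 2 the muscle-rich tumours scored 6.66, 7.50, 7.62, 7.95, 10.92, 11.34 and 12.00, against 5.87, 5.88, 5.94, 6.03, 6.05, 6.09 and 6.21 in the muscle-poor tumours. In study 3 the muscle-rich tumours scored 6.29, 6.32, 6.36 and 10.18, and the muscle-poor tumours 5.86, 5.87, 6.00 and 6.09. Just inside and just outside the split stood 6.66 against 6.21 in study 2 and 6.29 against 6.09 in study 3, so 3 of the 4 muscle-rich tumours of study 3 stood only slightly above the muscle-poor ones. No IgG tumour scored between 7.95 and 10.18. The 4 tumours above 10 were study 2 replicates 1, 3 and 7 and study 3 replicate 3. These values chose the groups and carry no test.

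The 4 score genes did not separate the groups equally well. Acta1 lay at 6.87 to 13.21 (median 9.97) in muscle-rich tumours of study 2, against 5.30 to 6.59 (median 5.39) in the muscle-poor. Tnnt3 lay at 5.55 to 11.24 (median 6.75) in the muscle-rich and at 4.68 to 4.98 (median 4.75) in the muscle-poor tumours of that study. Both genes left no overlap between the groups of study 2. Ckm, at 7.71 to 12.55 (median 8.12) against 6.54 to 7.80 (median 7.37), did overlap there. Mylpf, at 6.52 to 10.99 (median 7.25) in the muscle-rich and 6.05 to 6.80 (median 6.32) in the muscle-poor tumours, overlapped as well. In study 3 each of the 4 genes overlapped between the groups, and replicate 3 alone was far above the rest, with Acta1 at 11.34 against 5.70, 6.13 and 6.68 in the other muscle-rich tumours and 5.48, 5.59, 5.61 and 5.99 in the muscle-poor.

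**Figure D1:**
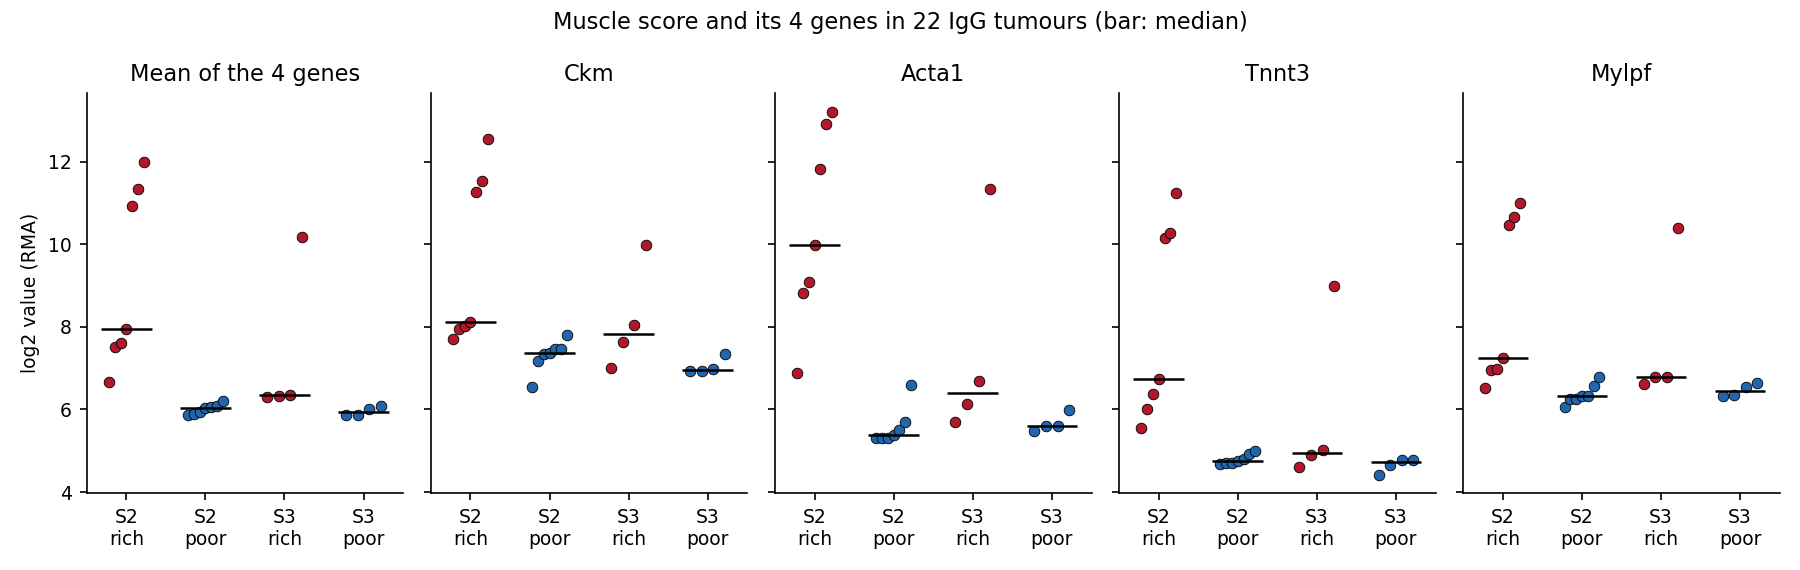
Log2 values of the muscle score and its 4 genes in each IgG tumour, by study (S2, S3) and group, with bars at the medians. In study 2 the 3 highest muscle-rich tumours score 10.92 to 12.00, and in study 3 1 tumour at 10.18 stands apart from 3 at 6.29 to 6.36.

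Of the muscle lists, that of fast fibres differed most between the groups. Of the 12 fast-fibre genes tested, 12 were higher in the muscle-rich than in the muscle-poor tumours with both studies together, with a median log2 difference of 1.96; over all 18190 genes 9385 were higher and the median was 0.00. Myh4, the myosin heavy chain of the fastest fibres, lay at 4.47 to 10.88 (median 7.08) in muscle-rich tumours of study 2 and at 3.43 to 3.82 (median 3.50) in the muscle-poor. In study 3 Myh4 was 3.68, 3.85, 3.94 and 7.37 in the muscle-rich and 3.35, 3.54, 3.56 and 3.71 in the muscle-poor tumours. The groups of study 2 stood apart in Myh4. Those of study 3 overlapped only through the muscle-rich tumour at 3.68, which lay below the muscle-poor tumour at 3.71. The difference was 3.04 ± 0.68 (log2, SE, 11 tumours in each group).

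Other fast genes showed the same order of size. Tnnc2, the calcium sensor of fast troponin, differed by 2.98 ± 0.68, Myl1, a fast myosin light chain, by 2.64 ± 0.75 and Pvalb, a calcium buffer of fast fibres, by 2.40 ± 0.65. Pvalb left no overlap in either study, at 6.87 to 12.43 (median 7.87) against 6.04 to 6.45 (median 6.23) in study 2, and at 6.06, 6.18, 6.28 and 10.28 in the muscle-rich against 5.88, 5.90, 5.94 and 6.03 in the muscle-poor tumours of study 3. Such differences come with the choice of groups, since genes of one tissue are bound to move together, and they are a description.

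Of the genes of calcium handling, the largest differences were those of Pvalb, Atp2a1, the calcium pump of fast fibres (1.86 ± 0.52), Casq1, which stores calcium (1.41 ± 0.50), and Trdn, which anchors it there (1.35 ± 0.48). Fxyd1, a regulator of the sodium pump, had the smallest at -0.10 ± 0.09. In energy metabolism, Pygm, which opens glycogen, differed by 1.56 ± 0.50, Ampd1, which clears AMP, by 0.98 ± 0.33, and Pgam2, a glycolytic enzyme, by 0.94 ± 0.34. Medians over the lists were 0.38 for 71 genes of the sarcomere and cytoskeleton, 0.12 for 34 of calcium handling, 0.11 for 77 of energy metabolism and 0.05 for 17 myogenic regulators. Myf6, the regulator kept on in mature fibres, differed by 0.54 ± 0.17 and Dlk1, a protein of muscle and fat precursors, by 0.58 ± 0.25. Probe sets of 1 gene did not always agree, with differences from -0.07 to 0.58 over 2 of Dlk1 and from -0.09 to 1.35 over 6 of Trdn. The 8 heart genes had a median of -0.06, the only one of the 7 muscle lists below 0, and Tnni3, the heart troponin I, differed by 0.07 ± 0.07.

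Slow-fibre genes split the 4 high tumours into pairs. Their list mean was 7.40 in study 2 replicate 1 and 7.29 in study 3 replicate 3, but 6.13 in study 2 replicate 3 and 6.21 in study 2 replicate 7, where the highest of the 71 tumours of the whole series with a score of 10 or less was 6.73. Myl2, the slow myosin light chain, was 6.96 and 6.82 in the first pair and 3.90 and 3.72 in the second, against 3.58 to 4.22 in the other 18 IgG tumours. Tnni1, slow troponin I, was 7.38 and 7.24 in the first pair and 5.65 and 5.76 in the second, against 5.21 to 6.26 in those 18. So the slow-fibre mean of 2 of the 4 muscle-laden IgG tumours was above that of every low tumour and that of the other 2 was not, although replicate 7 had the highest muscle score of all IgG tumours.

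Of the myosin genes, Myh2 followed these pairs and Myh1 did not. Myh2, the myosin of fast oxidative fibres, was 8.08 in study 2 replicate 1 and 6.50 in study 3 replicate 3, but 4.47 in study 2 replicate 3 and 4.24 in study 2 replicate 7, within the 4.04 to 5.34 of the other 18. Sln, a small inhibitor of the calcium pump, was 6.56 and 7.48 in the first pair and 4.50 and 4.27 in the second, against 3.99 to 4.82. Myh1, the myosin of intermediate fast fibres, was 9.51, 8.77 and 8.26 in study 2 replicates 1 and 7 and study 3 replicate 3, and 3.52 in study 2 replicate 3, within the 2.67 to 5.38 of the other 18. Study 2 replicate 3 thus had Myh4 at 9.40 and Pvalb at 11.66 beside Myh1 and Myh2 at the level of tumours with a low score. In the other 68 tumours 15 scored above 10, and in 13 of these the slow-fibre mean was above that of all 71 low tumours; the difference between 2 of 4 and 13 of 15 was not tested.

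**Figure D2:**
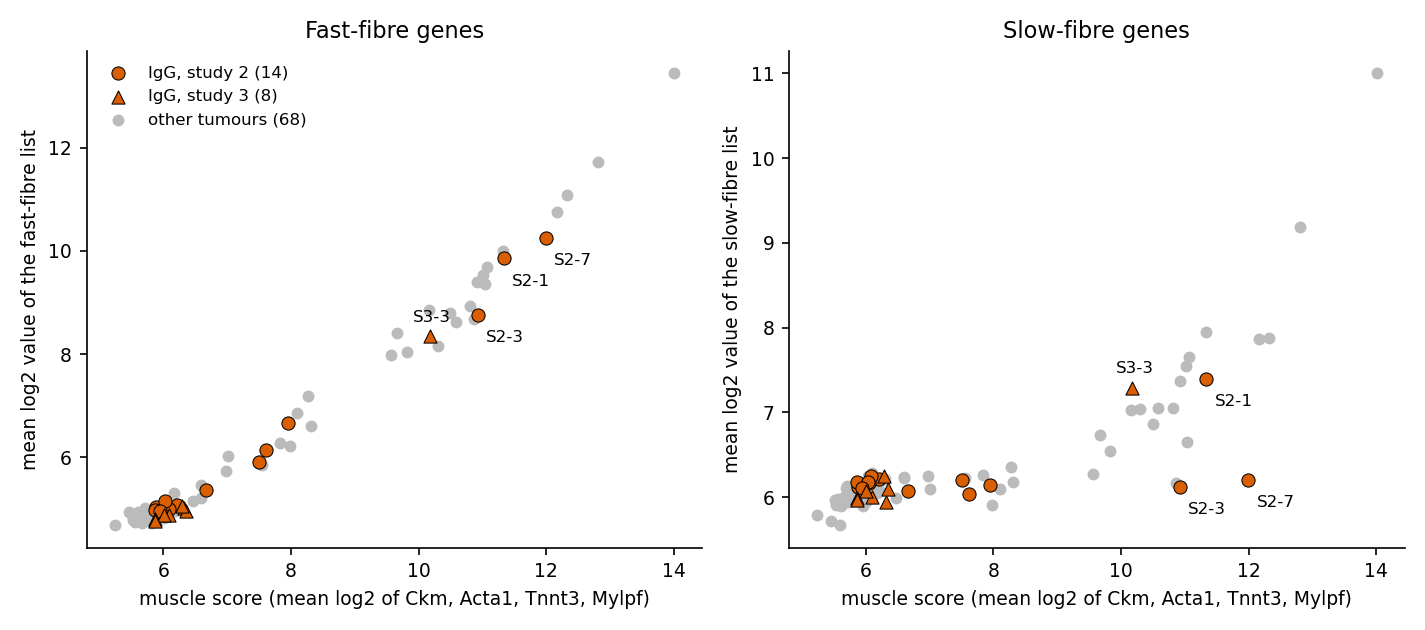
Mean log2 value of the fast-fibre list (left) and the slow-fibre list (right) against the muscle score, 1 point per tumour, IgG tumours in orange and the other 68 in grey; S2-7 is study 2 replicate 7. Fast-fibre means are 8.16 or more in the tumours scoring above 10 and at most 8.40 in those below, while S2-3 and S2-7 stay at slow-fibre means of 6.13 and 6.21.

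Outside the muscle lists no gene passed the test when the groups were compared. With both studies together, limma called 0 of 18190 genes higher (0%) and 0 lower (0%) in muscle-rich tumours at an adjusted p below 0.05, the smallest adjusted p was 0.858, and 589 genes had an unadjusted p below 0.05. Within study 2 alone 0 were called higher (0%) and 0 lower (0%), with 4907 genes at an unadjusted p below 0.05 and a smallest adjusted p of 0.141. Within study 3 alone 0 were higher (0%) and 0 lower (0%), with 966 at an unadjusted p below 0.05. No muscle gene was called either, Myh4 with its difference of 3.04 included; the muscle-rich group held scores of 6.29 and of 12.00 alike.

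The count for study 2 turned on single tumours. Without study 2 replicate 3 it was 1478 higher and 739 lower, and without replicate 12, a muscle-poor tumour, it was 1321 higher and 577 lower. Leaving out replicate 13, the lowest of the muscle-rich tumours, gave 1 higher and 0 lower. In study 3 the count was 0 higher and 10 lower without replicate 6, and 1 higher and 0 lower without replicate 2 or without replicate 3. With both studies together, the count was 0 whichever of the 22 tumours was left out.

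The genes of smallest p outside the muscle lists changed by little and did not pass the test. Asb9, of a family that feeds proteins to ubiquitin ligases, had the smallest among those lower in both studies, with a difference of -0.18 ± 0.04 (limma adjusted p = 0.858). It lay at 5.09 to 5.33 (median 5.14) in the muscle-rich and 5.31 to 5.44 (median 5.36) in the muscle-poor tumours of study 2, and at 4.89, 4.94, 4.97 and 5.10 against 5.02, 5.08, 5.17 and 5.22 in study 3. The groups overlapped in both studies. Mmp12, the elastase of macrophages, had the largest difference of the 10 on that side at -0.77 ± 0.24, with -0.76 in study 2 and -0.80 in study 3. Ap1g2, an adaptor of vesicle transport, differed by 0.21 ± 0.06, Dhx34, a helicase of RNA decay, by 0.30 ± 0.08, and Ppp1r12b, a subunit of myosin phosphatase, by 0.32 ± 0.09. Over the 4 probe sets of Ppp1r12b the difference ran from -0.09 to 0.32.

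Fibroblast, fat, macrophage and endothelial lists had medians of opposite sign when the groups of studies 2 and 3 were compared. For the 27 genes of fibroblasts and matrix the median difference was 0.63 in study 2 and -0.53 in study 3, against -0.02 and 0.02 over all genes. For 18 adipocyte genes it was 0.25 and -0.64, for 17 macrophage genes 0.32 and -0.24, and for 22 endothelial genes 0.44 and -0.07. Tendon genes had medians of one sign, 0.06 and 0.09 over 8 genes. The difference between the studies was tested for each gene, and limma called 0 of 18190 higher in study 2 (0%) and 0 lower (0%), with 5005 at an unadjusted p below 0.05. Without study 3 replicate 2, a muscle-rich tumour, that count was 1515 higher and 1373 lower, and without replicate 6 it was 8 in all.

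Fat transcripts varied within both groups of study 3. The adipocyte mean was 6.80, 6.84, 6.85 and 7.81 in the muscle-rich and 6.71, 7.94, 7.95 and 8.49 in the muscle-poor tumours. Adipoq, the hormone of fat cells, was 6.91, 7.65, 7.65 and 10.66 in the muscle-rich and 6.39, 10.61, 10.71 and 11.46 in the muscle-poor tumours of that study. Among the muscle-rich, replicate 3 alone carried Adipoq above 10, and among the muscle-poor 3 of 4 did.

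**Figure D3:**
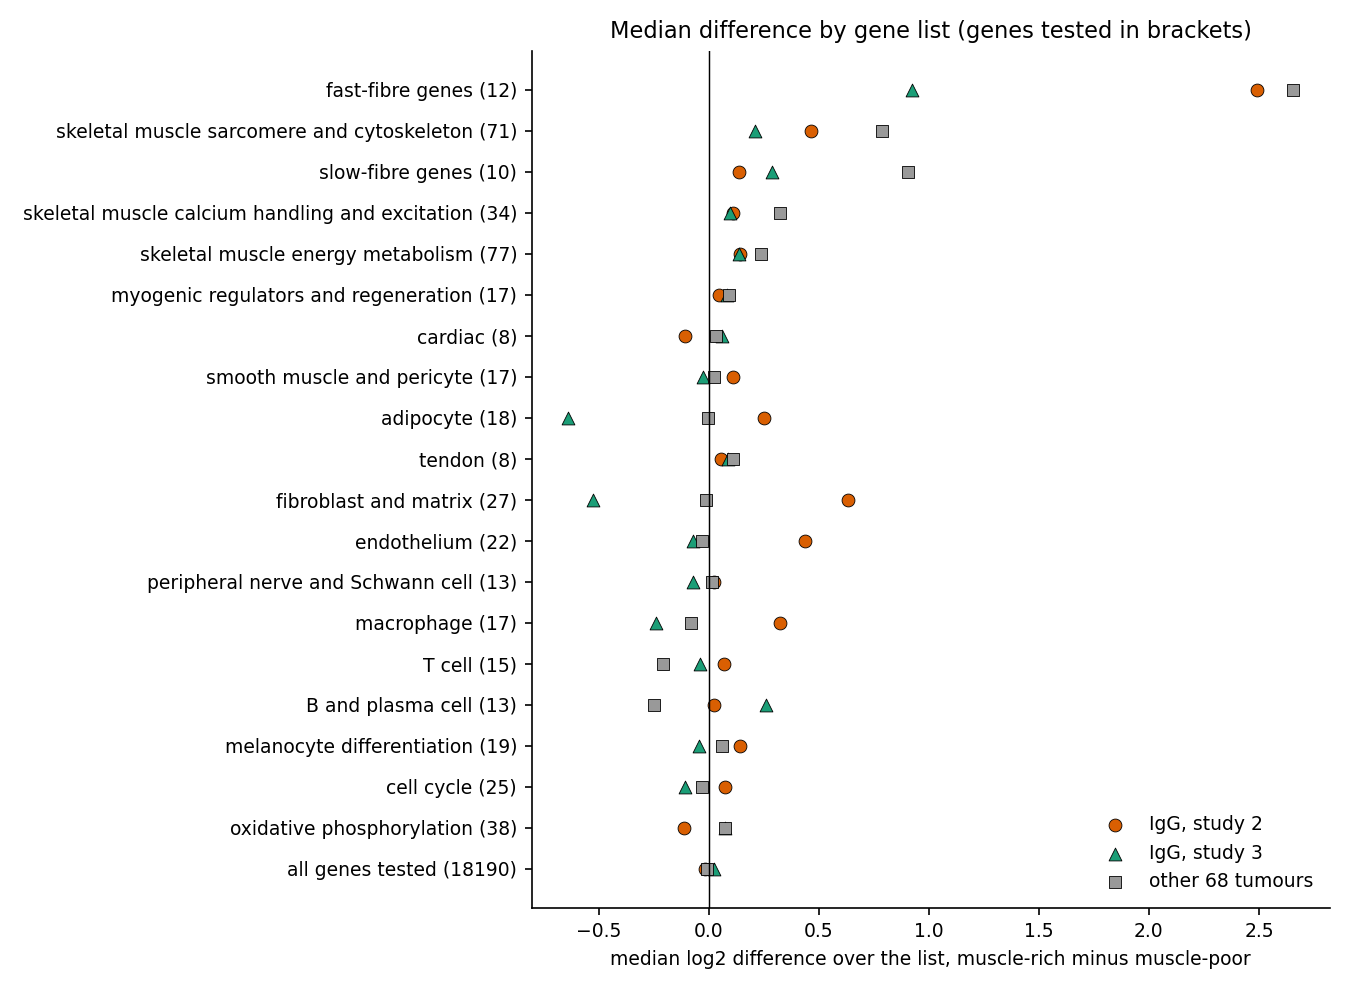
Median log2 difference, muscle-rich minus muscle-poor, over each gene list in IgG tumours of study 2, IgG tumours of study 3 and the other 68 tumours. Fast-fibre genes stand at 2.49, 0.93 and 2.66, while fibroblast genes stand at 0.63, -0.53 and -0.01.

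Tumour and body-wide lists gave medians close to that of all genes. The median difference with both studies together was 0.06 for 19 melanocyte differentiation genes, 0.00 for 25 cell cycle genes, -0.04 for 38 genes of oxidative phosphorylation, -0.02 for 13 nerve and Schwann cell genes and -0.01 for 18 keratinocyte genes. Mlana and Pmel, pigment cell antigens, differed by -0.00 ± 0.22 and 0.13 ± 0.15, and Mki67, a marker of dividing cells, by 0.32 ± 0.18. The engineered genes Hgf and Cdk4 differed by -0.02 ± 0.16 and -0.02 ± 0.06, and Cd274, which encodes PD-L1, by 0.09 ± 0.11. The median was 0.04 for 15 T cell genes and 0.00 for 14 cytotoxic genes. These medians joined opposite signs in studies 2 and 3, at 0.07 and -0.04 for T cell genes and 0.15 and -0.14 for cytotoxic genes. The list of MHC class II and dendritic cells, at 0.23 and -0.25, and the interferon list, at 0.22 and -0.15, also differed in sign between the studies. Cd8a, Acta2 and Tnmd, markers of cytotoxic T cells, smooth muscle and tendon, differed by 0.00 ± 0.18, 0.17 ± 0.26 and 0.20 ± 0.13. Pecam1 of vessels, Col1a1 of matrix and Xist, the RNA of the inactive X chromosome, differed by 0.29 ± 0.26, 0.41 ± 0.46 and 0.38 ± 0.32. Each of these genes missed the threshold in this comparison of groups (limma adjusted p of 0.858 or more), which does not show that they were equal. In bulk tumour RNA, fewer cells of a type and less RNA per cell cannot be told apart.

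Because the groups mixed low and high scores, each gene was also regressed on the score itself among the 22 IgG tumours, and this fit was made a result of its own after the data were seen. The slope is the log2 change of a gene per log2 unit of score. With study as a covariate, limma called 637 of 18190 genes rising (3.50%) and 73 falling (0.401%) with the score. Of the 637, 81 were in the muscle lists and 556 were not. Muscle list members again follow from the choice of the score.

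Most of the 556 calls depended on 1 tumour. Without study 2 replicate 7, the tumour with the highest score, 94 genes rose and 0 fell, 69 of the 94 in the muscle lists and 25 outside. The median slope of the 556, which were chosen with all tumours, was 0.16 with replicate 7 and 0.11 without it, against a median near 0 over all genes outside the muscle lists. Without study 2 replicate 3 the counts went the other way, to 1184 rising and 667 falling. Leaving out any other tumour gave 469 to 709 rising. With study 2 alone 579 rose (3.18%) and 94 fell (0.517%), and with study 3 alone, where only replicate 3 had a high score, 44 rose (0.242%) and 0 fell (0%), 32 of the 44 in the muscle lists.

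**Figure D4:**
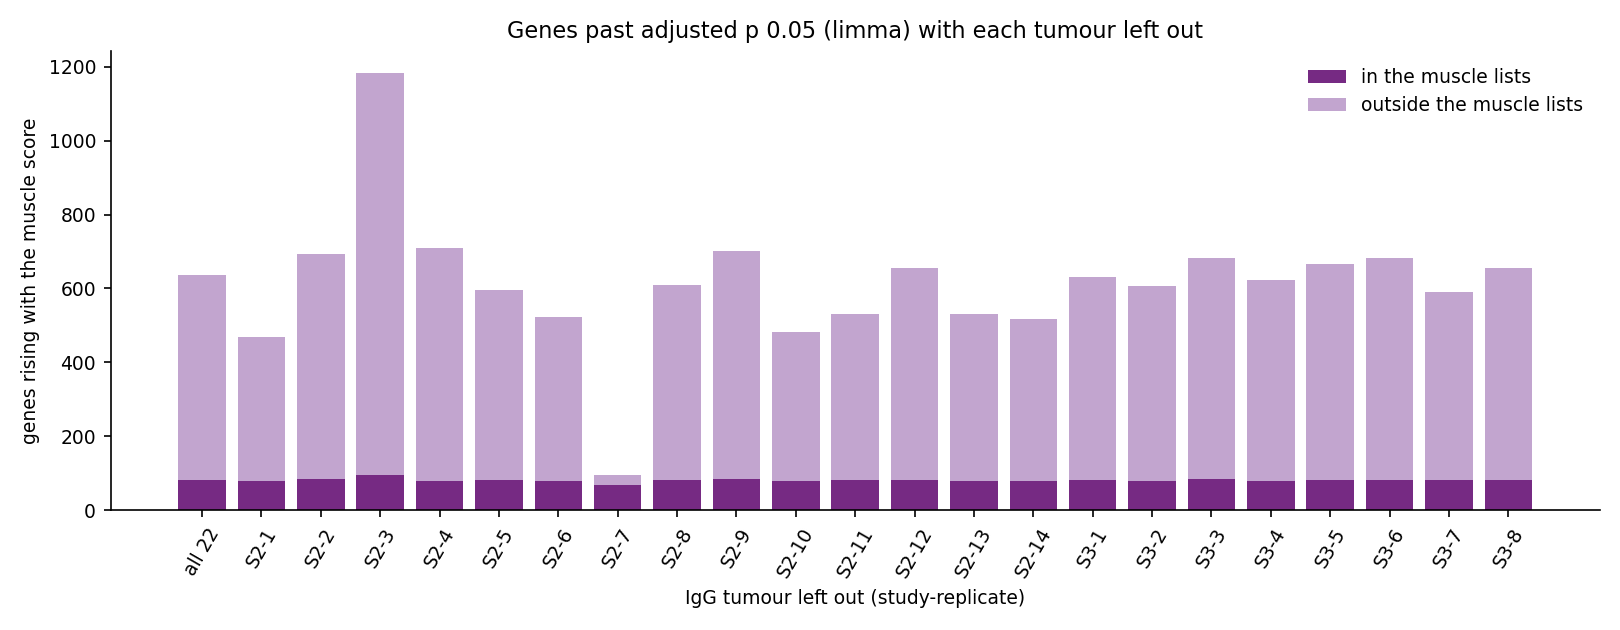
Number of genes rising with the muscle score at a limma adjusted p below 0.05, for all 22 IgG tumours and with each left out in turn, split into genes in and outside the muscle lists. The bar without S2-7 falls to 94 from 637, and its muscle part stays near the others, at 69 against 81.

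Replicate 7 of study 2 also had the most transcripts of supporting cells among the 22 IgG tumours. Its mean was 10.87 for the fibroblast and matrix list, where the next tumour had 9.76, and 8.56 for endothelial genes, where the next had 7.57. Its smooth muscle mean of 8.07 and tendon mean of 5.17 were also the highest. Col6a2, a chain of collagen VI, was 12.33 in that tumour and lower in each of the other 21, the lowest at 7.25; its slope was 0.39 ± 0.08 (limma adjusted p = 0.0098) and 0.27 without replicate 7 (adjusted p = 0.299). Csf1r, the growth factor receptor of macrophages, was 12.51 there and 8.92 to 11.33 elsewhere; its slope was 0.33 ± 0.07 (adjusted p = 0.006) and 0.23 without it (adjusted p = 0.221). In all, 6 of 27 fibroblast and 8 of 17 macrophage genes rose with the score, where 3.50% of all genes did, and 0 of either did without replicate 7, where 0.517% of all genes did. The median slope of fibroblast genes was 0.22 with all tumours and 0.12 without it, and that of macrophage genes 0.20 and 0.11, against -0.005 and -0.0004 over all genes. Xist rose with the score too, by 0.26 per unit, and all 3 of its probe sets had slopes above 0. It was the 1 gene called of 4 sex-linked genes, and 0 of 4 were called without replicate 7.

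Macrophage transcripts were also high in the other tumours scoring above 10. The macrophage mean was 9.83, 9.85 and 11.23 in study 2 replicates 1, 3 and 7 and 9.82 in study 3 replicate 3, against 8.69 to 9.81 (median 9.27) in the other 18 IgG tumours. The 4 high tumours did not overlap with the 18, with replicate 7 far above the rest and the other 3 just above the highest of the 18. Slopes were above 0 for 17 of 17 macrophage genes, with replicate 7 and without it, against 8087 and 8975 of all 18190 genes. The median slope of the macrophage list was 0.22 in study 2 alone and 0.14 in study 3 alone, where the comparison of groups had given medians of opposite sign, and that of the adipocyte list was 0.11 and 0.03. Fibroblast genes had medians of 0.28 and -0.0015 and endothelial genes of 0.14 and -0.03 in these studies, against -0.0069 and 0.0035 over all genes. Since only replicate 3 of study 3 had a high score, the slopes of study 3 describe that tumour.

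Genes of cytotoxic lymphocytes, which kill target cells through perforin and granzymes, had slopes above 0 throughout their list. The median slope was 0.17 for 14 cytotoxic genes, with 14 of 14 above 0. Without study 2 replicate 7 it was 0.14, again with 14 of 14 above 0. Over all 18190 genes 8087 and 8975 slopes were above 0 in these fits. The cytotoxic median was 0.14 in study 2 alone and 0.20 in study 3 alone, where only replicate 3 had a high score. It was 0.01 in the other 68 tumours, where 8 of 14 were above 0, against 7352 of all 18190 genes. Calls were few, at 2 of 14 with all IgG tumours (3.50% of all genes) and 0 of 14 without replicate 7 (0.517%). The cytotoxic mean was 7.04, 7.67 and 7.47 in study 2 replicates 1, 3 and 7 and 7.52 in study 3 replicate 3, against 5.69 to 7.43 (median 6.65) in the other 18, so the sets overlapped. For 15 T cell genes the median slope was 0.10, with 14 of 15 above 0 and 2 called. Their list mean was 6.51 to 6.69 in the 4 high tumours against 5.64 to 6.62 (median 6.12) in the 18. The interferon list had 20 of 20 slopes above 0, with replicate 7 and without it. The list of MHC class II and dendritic cells had 12 of 13 and 13 of 13. Calls were 1 of 20 and 3 of 13 with all IgG tumours, and 0 of either list without replicate 7. In the other 68 tumours the T cell, interferon and MHC class II lists had 10 of 15, 9 of 20 and 9 of 13 slopes above 0. Their median slopes there were 0.01, -0.0005 and 0.003, and no member was called.

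The 25 genes outside the muscle lists that rose also without replicate 7 were looked up in the other 68 tumours, which share no tumour with the IgG set. Of the 25, 12 also rose with the score in those 68, against 101 of all 17982 genes outside the muscle lists. The 12 were Car3, Fhl1, Synpo2, Tmem182, Myhas, Ak1, Bex1, Cacna2d1, Mypn, Ddit4l, Pdk2 and Ppp1r27. Several of these are genes of muscle, as given below, so the count of 12 is a description. The other 13 did not pass there, and for some the slope was near 0. Gas1, a surface protein tied to growth arrest, had a slope of 0.30 ± 0.04 in IgG tumours (limma adjusted p = 1.63e-04) and 0.03 ± 0.05 in the others. Entpd1, the ectoenzyme CD39 of immune and vessel cells, had 0.23 ± 0.03 and 0.04 ± 0.04, and Ebi3, a subunit of immune cytokines, 0.28 ± 0.04 and 0.01 ± 0.04. No gene was shown to differ in slope between the IgG tumours and the other 68: the test of that difference called 0 of 18190, with a smallest limma adjusted p of 0.316 and 1193 genes at an unadjusted p below 0.05.

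Several of the 12 are known from muscle although the lists did not hold them as muscle genes. For such genes a rise with the score follows from its choice, in the IgG tumours and in the other 68 alike. Fhl1, a LIM protein of the sarcomere, was 9.98, 10.89 and 9.21 in study 2 replicates 1 and 7 and study 3 replicate 3, but 7.47 in study 2 replicate 3, within the 5.60 to 7.53 of the other 18. Its slope was 0.59 ± 0.07 in IgG tumours (limma adjusted p = 2.04e-05) and 0.68 ± 0.06 in the other 68 (adjusted p = 1.91e-15). Synpo2, an actin binder of striated and smooth muscle, was 7.23, 6.73, 8.43 and 6.35 in study 2 replicates 1, 3 and 7 and study 3 replicate 3, all above the 4.46 to 5.55 of the other 18. Its slopes were 0.47 ± 0.04 in IgG tumours (adjusted p = 1.33e-08) and 0.52 ± 0.04 in the others (adjusted p = 1.14e-15). Other probe sets of some named genes rose less or not at all. IgG slopes ran from 0.0025 to 0.59 over 2 probe sets of Fhl1 and from -0.02 to 0.47 over 4 of Synpo2. The range was -0.01 to 0.35 over 2 of Ak1, -0.01 to 0.30 over 3 of Gas1 and 0.07 to 0.97 over 4 of Car3. All 3 probe sets of Ddit4l rose, by 0.18 to 0.23.

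Bex1, a small adaptor described in nerve and regenerating muscle, was 4.14, 4.30, 5.99 and 4.67 in the 4 high tumours, against 2.81 to 3.54 in the other 18. It had no overlap between the high and the low tumours, and its slopes were 0.33 ± 0.04 in IgG tumours (limma adjusted p = 1.07e-05) and 0.40 ± 0.04 in the other 68. Myhas, an antisense transcript of the fast myosin cluster with a probe set of its own, had slopes of 0.41 ± 0.04 and 0.64 ± 0.03. Tmem182, a membrane protein of muscle, had 0.42 ± 0.04 and 0.42 ± 0.04. Ak1, the adenylate kinase of muscle, had 0.35 ± 0.04 and 0.32 ± 0.04, Mypn, which binds actinin in the Z disc, had 0.28 ± 0.04 and 0.39 ± 0.04, and Cacna2d1, a calcium channel subunit, had 0.30 ± 0.04 and 0.33 ± 0.05.

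Car3, carbonic anhydrase of slow muscle and fat, had the steepest slope outside the muscle lists, and fat varied beside it. It was 12.28, 11.52, 12.64 and 12.11 in the 4 high tumours and 3.81 to 12.55 in the other 18. In study 2 the groups did not overlap, at 8.40 to 12.64 (median 9.12) in the muscle-rich and 3.81 to 7.53 (median 6.72) in the muscle-poor tumours. In study 3 they did, at 8.34, 8.78, 9.38 and 12.11 against 8.15, 11.94, 12.14 and 12.55, where the 3 muscle-poor tumours near 12 were those with Adipoq above 10. The slope of Car3 was 0.97 ± 0.16 in IgG tumours (limma adjusted p = 0.00121) and 0.68 ± 0.14 in the other 68 (adjusted p = 7.41e-04). Adipoq had a slope of 0.45 in IgG tumours (adjusted p = 0.102) and 0.10 in the others, and the part of fat in the slope of Car3 was not tested.

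**Figure D5:**
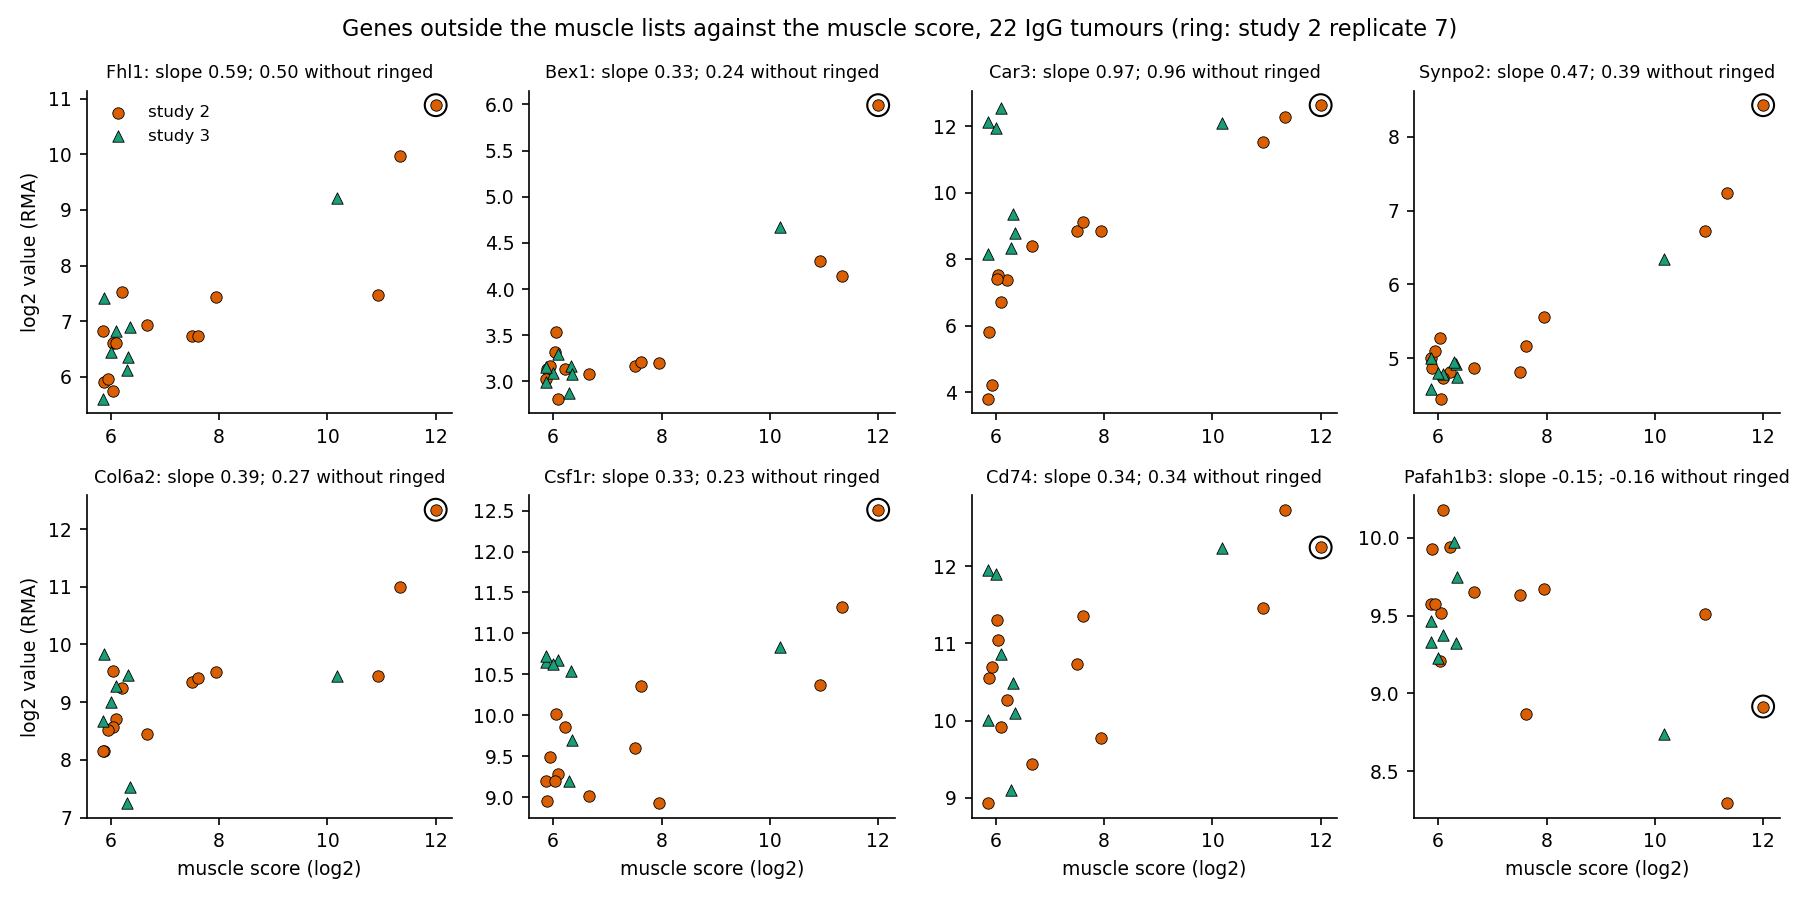
Log2 values of 8 genes outside the muscle lists against the muscle score in the 22 IgG tumours, by study, with study 2 replicate 7 ringed and slopes with and without it above each panel. Fhl1, Bex1 and Synpo2 keep slopes of 0.50, 0.24 and 0.39 without it, and Col6a2 and Csf1r fall to 0.27 and 0.23.

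Slopes of the 73 falling genes were no steeper than -0.293 per unit of score, the lowest of all 18190 genes. Pafah1b3, a subunit of an enzyme that breaks down platelet-activating factor, fell by 0.15 per unit of score in IgG tumours (SE 0.04, limma adjusted p = 0.0221) and by 0.10 in the other 68 (SE 0.02, adjusted p = 0.0183). It was the 1 gene among the 73 that also fell there. Without study 2 replicate 7 its slope was -0.16 and no longer passed (adjusted p = 0.166). Of 20 hypoxia and glycolysis genes, 3 had slopes above 0 in IgG tumours, 2 without that replicate and 3 in the other 68. Over all 18190 genes these counts were 8087, 8975 and 7352. The list medians were -0.04, -0.07 and -0.03. Calls as falling were 0 of 20 in IgG tumours (0.401% of all genes) and 1 of 20 in the other 68 (0.0495%).

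In study 3 alone 12 genes outside the muscle lists rose with the score, Ms4a1, Mzb1 and Pou2af1 among them. Of the 13 genes of the B and plasma cell list 2 rose, Ms4a1 and Mzb1, where 0.242% of all genes did, and the median slope of the list was 0.04. Ms4a1, the B cell antigen CD20, was 7.17 in replicate 3 and 4.47, 5.01 and 5.46 in the other muscle-rich tumours, against 4.55, 4.66, 5.09 and 5.34 in the muscle-poor. Its slope was 0.55 ± 0.08 in study 3 (limma adjusted p = 0.0401), 0.05 in study 2 (adjusted p = 0.529) and -0.13 in the other 68 tumours (adjusted p = 0.994). Pou2af1, a coactivator of B cells that the list did not hold, had slopes of 0.47 ± 0.06 (adjusted p = 0.0108), 0.09 and -0.13 in these sets, and Mzb1, a protein of plasma cells, had 0.41 ± 0.07 (adjusted p = 0.0495), 0.07 and -0.12. Since replicate 3 is the one tumour of study 3 with a high score, these slopes describe that tumour. Its mean over the B and plasma cell list was 6.66, the highest of the 22.

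The other 68 tumours were split by the same score, at the median of each treatment or outcome group within its study. No median of a whole study was used here, and the model held a term for each of these groups. This gave 31 muscle-rich and 37 muscle-poor tumours. Here limma called 60 of 18190 genes higher (0.330%) and 0 lower (0%) in the muscle-rich. Of the 60, 53 were in the muscle lists, among them 12 of the 12 fast-fibre and 6 of the 10 slow-fibre genes, and 7 were not: Fhl1, Myhas, Synpo2, Tmem182, Bex1, Ppp1r27 and Myadml2. Fhl1 differed by 1.88, Myhas by 1.81, Synpo2 by 1.24, Tmem182 by 1.07 and Bex1 by 1.06 (limma adjusted p between 2.06e-04 and 0.0387). Ppp1r27 and Myadml2 differed by 0.79 and 0.15. A rise of muscle genes among these 7 likewise follows from the choice of the score. In the IgG groups the first 5 differed by 1.21, 0.88, 0.94, 0.64 and 0.56, Ppp1r27 by 0.40 and Myadml2 by -0.00, with none past the threshold. Without tumours scoring above 10 the count among the other tumours was 3, and in the 23 non-responders alone it was 10.

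Regressed on the score, the other 68 tumours gave 228 genes rising (1.25%) and 9 falling (0.0495%), 127 and 1 of them in the muscle lists. Of the 637 rising genes of the IgG tumours, 114 also rose here, 17.9% of the 637 and 50% of the 228. Outside the muscle lists 34 were shared, 6.12% of 556 and 33.7% of 101. The median slope of the 556 was 0.16 in the IgG tumours, which chose them, and 0.02 in the other 68, where 454 of 556 slopes were above 0 (81.7%), against 7159 of 17982 (39.8%) over all genes outside the muscle lists. Of the supporting-cell genes above, Col6a2 had a slope of 0.11 in the other 68 (limma adjusted p = 0.969) and Csf1r of 0.05 (adjusted p = 0.998), and 0 of 27 fibroblast and 0 of 17 macrophage genes passed there. The test of the difference between the split in IgG tumours and in the other 68 called 0 genes higher (0%) and 0 lower (0%), with 1221 at an unadjusted p below 0.05.

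Slow-fibre genes had larger differences in the other tumours than in the IgG tumours, and the test of that difference called none of them. The median over 10 slow-fibre genes was 0.19 in the IgG groups and 0.91 in the other tumours, against 0.00 and -0.01 over all genes. Myl2 differed by 0.49 ± 0.37 in the IgG groups and 1.85 in the others, and Myh2 by 0.54 ± 0.35 and 1.83. On the score, 1 of 10 slow-fibre genes rose in the IgG tumours (3.50% of all genes), or 2 of 10 without study 2 replicate 7 (0.517%), and 9 of 10 rose in the others (1.25%). Of 9 genes that fell in the others, Pdk1, a kinase that inhibits pyruvate dehydrogenase, fell by 0.08 per unit and had a slope of -0.11 in IgG tumours (limma adjusted p = 0.216).

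RNA quality and array level overlapped between the groups. The difference between 3 prime and 5 prime control probe sets of Actb and Gapdh, which grows with degraded RNA, had medians of -0.01 and -0.01 in the muscle-rich and muscle-poor tumours of study 2 and of 0.08 and 0.03 in those of study 3. In the 4 high tumours it lay between -0.07 and 0.11, and in the other 18 IgG tumours between -0.07 and 0.48. Array medians lay between 5.80 and 5.86 in the muscle-rich and between 5.78 and 5.83 in the muscle-poor tumours. The melanocyte list mean was at least 9.57 in each of the 22 IgG tumours, so pigment cell transcripts were present at every muscle score.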

How the data were processed

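Whole-tumour RNA was measured on mouse 3 prime expression arrays with 45101 probe sets, from 800 ng of input per the labels. The authors deposited log2 values; per the submitters' processing notes these come from RMA, a summary and normalization of probe sets, and limma, with no versions. The sources used here do not say if RMA was run on studies 2 and 3 at once. The number of arrays limits the precision, and p-values measure the spread between tumours of separate animals.

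Of the probe sets, 34958 name a single gene and were used, while 932 name several and 9211 none. A gene was read from its probe set of highest mean across the 90 arrays, giving 18194 genes, of which 18190 were tested without the 4 score genes. The fits used limma 3.58.1 in R 4.3.3 with study as covariate, and treatment group in the other tumours, with 2-sided tests and Benjamini-Hochberg adjustment over all genes at 0.05. Errors of differences and slopes are limma's standard errors. Slopes come from the same model with the score in place of the groups.

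The members, the 35 gene lists (674 of 724 entries measured) and the tests were chosen with earlier results of these data known, and the continuous score as a result, the limit of 10 on the score and the genes named from slopes were chosen after these fits were seen. The genes named from the groups are, of each muscle list, the largest 4 differences and the smallest, outside them the 10 of smallest p in each direction with the same sign in both studies, of each other list the 2 of smallest p, and a set of 14 markers; some of these are not reported here. Alternatives were another split, no study term, all tumours fitted together, other probe set rules, a filter on dim genes, centring, quantile normalization within study, an RNA quality covariate, trend and robust variance, array weights, a threshold of 0.01 and leaving out each IgG tumour. The fit was tested on simulated data.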

Additional observations from a re-analysis of the deposited data

Results flagged for a closer look

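In each study and group, the muscle score and the mean of every gene list were searched for a tumour that stands apart from the rest of its group. Of 144 such sets, 15 held such a tumour, and the rule flags about 1 in 20 by chance. The comparison with chance does not hold for the muscle score, which chose the groups, nor for muscle list means, which follow it. Some lists also share genes. Study 3 replicate 3 stood apart among the muscle-rich tumours of its study by its score of 10.18 (next 6.36), its sarcomere mean of 6.72 (next 5.67), its calcium handling mean of 6.59 (next 6.05), its fast-fibre mean of 8.35 (next 5.06) and its adipocyte mean of 7.81 (next 6.85). Among the muscle-rich tumours of study 2, replicate 1 stood apart by a slow-fibre mean of 7.40 (next 6.21), and replicate 7 by a smooth muscle mean of 8.07 (next 7.09) and a tendon mean of 5.17 (next 4.71). Among the other muscle-rich tumours of study 3, replicate 7 was low in muscle atrophy genes at 8.12 (next 8.29), replicate 8 low in sex-linked genes at 4.78 (next 5.17) and replicate 2 low in neutrophil genes at 5.30 (next 5.67). Among the muscle-poor tumours of study 2, replicate 11 was high in tendon genes at 4.62 (next 4.48), replicate 14 low in endothelial genes at 6.77 (next 6.97), replicate 12 low in oxidative phosphorylation genes at 11.88 (next 12.03) and replicate 10 high in immediate early genes at 9.21 (next 8.74). Of these tumours, study 2 replicates 7 and 12 and study 3 replicates 2 and 3 are ones whose removal changed a count given above by over 1.5 times; whether these list means play a part in that was not tested.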

How the results depend on the processing

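Counts of genes past the threshold moved by over 1.5 times as follows. For the IgG groups, against 0, the continuous score gave 710 and a score above 10 against the rest 526; every other alternative run on both studies together gave 0. Leaving out each IgG tumour gave 0 each time with both studies, 0 to 2217 in study 2, 0 to 10 in study 3, 0 to 2888 for the difference between studies and 94 to 1851 for the slope. The slope's 710 became 1217 with array weights, 44 in study 3 alone, 10 without tumours scoring above 10 and 214 at a threshold of 0.01. In the other tumours, against 60, the count was 237 with the continuous score, 16 with the filter on dim genes, 101 with array weights, 155 for a score above 10, 3 without those tumours, 10 in non-responders and 39 at 0.01. Their slope's 237 became 69 with the filter on dim genes and 103 in non-responders. Without tumours scoring above 10 the IgG slopes of Cd74, Csrp3, Ddit4l and Pou2af1 turned to -0.030, -0.046, -0.084 and -0.035. The causes were not tested. No paired analysis was possible because each tumour came from its own animal.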
